A study of Zea mays with 56 samples.

Results

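CACTA elements are a superfamily of DNA transposons, which plants carry in every chromosome. Here they are the 310 transposable elements (TEs), of 60247 in the deposited count table, whose identifier starts with DTC, the usual code for the superfamily. The identifiers of 2292 TEs hold the letters zmB and are called B-tagged here. None of the 310 CACTA elements was B-tagged, so the whole rise of CACTA reads with B copy number lay in elements without that tag. The planned comparison of a B-tagged with an untagged CACTA set therefore had no first set. Other superfamilies of DNA transposons with terminal inverted repeats did hold B-tagged elements: 8 of 3717 hAT elements (code DTA), 144 of 4535 PIF-Harbinger elements (DTH), 2 of 863 Mutator elements (DTM) and 100 of 877 Tc1-Mariner elements (DTT).

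CACTA transposons take their name from the bases at the ends of their terminal inverted repeats, and the En/Spm element of maize is the best known of them. An autonomous copy encodes the transposase that cuts the element out and inserts it elsewhere, while short or internally deleted copies move only when another copy supplies the enzyme. Plants normally keep most copies silent with small RNAs and DNA methylation, and a read over a copy can also come from the transcript of a neighbouring gene that runs through it.

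The plants were of the maize inbred W22, grown in a greenhouse to an age of 45 days, and leaf total RNA was sequenced. B chromosomes are dispensable extra chromosomes, and their number was counted in seedlings by fluorescence in situ hybridization. There were 4 control plants without B chromosomes (Control), 4 plants each with 1, 2, 3 and 4 copies (1B to 4B), 2 with 5 copies (5B), 3 with 6 (6B) and 3 with 7 (7B), called biological replicates by the study's design text. In the labels the control plants are coded D and the 24 carriers EB, so B presence and whatever that code stands for cannot be told apart. The dosage comparison uses carriers only. Leaf identity could not be checked against marker genes, because the gene identifiers come without gene names.

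TE totals per library ranged from 738507 to 1623250 counts, and CACTA elements took 596 to 2746 of them, or 0.0399% to 0.214%. In 3 libraries a single Gypsy element held much of the TE total: 31.4% in replicate 3 of 1B, 25.1% in replicate 4 of Control and 17.7% in replicate 2 of Control. The library labelled 4B replicate 1 stood apart from its group. Over 33 B-tagged TEs that were nearly absent from controls (control mean under 1 CPM, carrier mean of at least 10 CPM, chosen on these data), its summed level was 1690 CPM. The other 4B plants lay between 1175 and 1217 CPM and the 6B plants between 1648 and 1721 CPM. The same sum was 3.12 to 10.9 CPM in controls. CPM is a library's count scaled to 1000000 TE reads, after correction of the TE total by edgeR's TMM factor.

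Most CACTA elements were short and gave few reads. Lengths, recovered from the ratio of deposited counts to deposited RPKM values for the 208 elements with any count, ran from 67 to 4105 bases with a median of 137, and 3 elements reached 1000 bases. The other 102 elements had no count in any library. Of the 40 families named in the identifiers, the largest were DTC00119 with 76 elements, DTC00122 with 57 and DTC00030 with 45. DTC12155 has 26 elements and 1 count over all 28 libraries, whereas DTC00060 and DTC00108 have 1 listed element each and gave 8475 and 17024 of the 43861 CACTA counts.

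The summed CACTA level rose with B copy number. In controls it was 884, 730, 846 and 752 CPM, and in 1B plants 893, 1190, 1061 and 1060 CPM. The 4B plants had 1846, 1182, 1315 and 1405 CPM, with the library labelled 4B replicate 1 the highest, and the 7B plants had 1704, 2011 and 1819 CPM. All 24 carriers lay above the highest control. The mean ± SD was 803 ± 73.9 CPM for the 4 controls, 1051 ± 122 CPM for the 4 plants of 1B, 1186 ± 27.0 CPM for the 4 of 2B and 1289 ± 79.9 CPM for the 4 of 3B. It was 1437 ± 288 CPM for the 4 plants of 4B, 1477 ± 28.8 CPM for the 2 of 5B, 1683 ± 99.8 CPM for the 3 of 6B and 1845 ± 155 CPM for the 3 of 7B. Neighbouring groups overlapped at every step except from Control to 1B and from 5B to 6B.

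On the log2(CPM + 1) scale the sum was 0.77 higher in carriers (10.41 ± 0.30, SD, n = 24) than in controls (9.65 ± 0.13, n = 4; two-sided exact permutation p = 4.9e-05, the smallest these group sizes allow). Among the 24 carriers it rose by 127.9 ± 13.8 CPM per copy (SE), at a Pearson's r of 0.892 and a rank correlation (Spearman's rho) of 0.892, and each had the smallest value that 100000 permutations give (permutation p = 1e-05). That is the one carrier sum tested for dosage, since the B-tagged set was empty, and no adjustment over sums applied. The 3 plants of 7B are equally far from the median copy number, and with any 2 of them left out r was 0.859 to 0.875 and rho 0.873 to 0.884. Without the library labelled 4B replicate 1, the slope was 126.5 ± 10.5 CPM per copy, r was 0.935, and the difference between carriers and controls was 0.75 (exact permutation p = 5.7e-05).

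**Figure D1:**
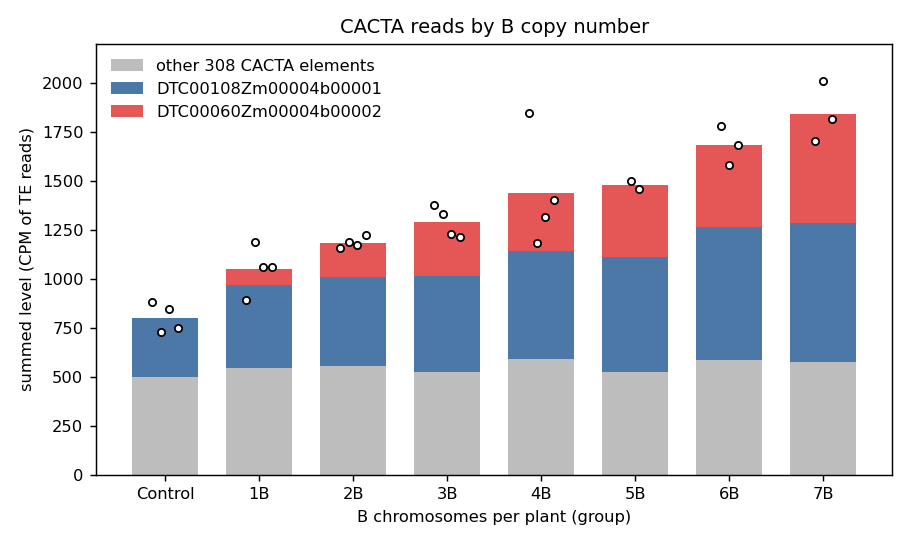
Summed level of the 310 CACTA elements by group, in CPM of TE reads. Bars stack the group means of DTC00060Zm00004b00002 (red), DTC00108Zm00004b00001 (blue) and the other 308 elements (grey), and open points are the totals of single plants; the grey part is 497 CPM in controls and 574 CPM in 7B, while the red part goes from 1.56 to 558 CPM.

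A pair of elements carried 95.5% of that slope. DTC00060Zm00004b00002 added 71.9 ± 7.12 CPM per copy (SE), or 56.2% of the sum's slope, and DTC00108Zm00004b00001 added 50.2 ± 4.34 CPM per copy, or 39.2%. The other 308 elements together added 5.77 ± 6.69 CPM per copy, or 4.51%. Their sum was 497 ± 62.0 CPM over the 4 controls (SD), 546 ± 103 CPM over the 4 plants of 1B and 574 ± 20.6 CPM over the 3 of 7B, and 7 of 24 carriers lay above the highest control. This split was made after the slopes were seen and is given without a test. Without the library labelled 4B replicate 1, the pair held 95.9% of the slope and the other 308 elements added 5.15 ± 5.20 CPM per copy. Single slopes summed to 140.5 CPM per copy over the 119 elements with a positive slope and to -12.6 over the 73 with a negative one.

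DTC00060Zm00004b00002, 119 bases long, was nearly without reads in plants that lack B chromosomes. The 4 controls had 8, 0, 1 and 0 counts, or 5.50, 0, 0.728 and 0 CPM. The 1B plants had 83.8, 78.4, 82.7 and 73.4 CPM, and the 2B plants 141, 214, 169 and 189 CPM. Every carrier lay far above every control, and the 1B and 2B plants did not overlap. The 3B plants had 388, 327, 197 and 180.5 CPM, and the 4B plants 445, 242, 223 and 265 CPM. The 3B and 4B plants overlapped over most of their range, with 2 plants of 3B and the library labelled 4B replicate 1 at the top. The 5B plants had 352 and 377 CPM, the 6B plants 468.8, 401.5 and 388.5 CPM, and the 7B plants 482, 679 and 513 CPM. The 5B plants lay below all 6B plants and these below all 7B plants.

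Carriers had 8466 counts of this element and controls 9, a ratio of pooled levels of 152 (95% interval 80.3 to 333, counting error only). For B presence, which sets the average of the 7 carrier groups against the controls, its log2 change was 7.03 ± 0.37 (SE; edgeR quasi-likelihood adjusted p = 7.7e-16), and without Control replicate 1, which holds 8 of the 9 control counts, it was 9.25. For B dosage it rose by 0.39 ± 0.04 per copy on the log2 scale among carriers (edgeR adjusted p = 7.5e-09). The group means of its level per copy were 79.6, 89.0, 91.0, 73.5, 72.9, 69.9 and 79.7 CPM per copy from 1B to 7B. Single plants within a group could differ more, as in 3B, where levels ran from 180.5 to 388 CPM. The 4B mean includes the library labelled 4B replicate 1 at 445 CPM, where the other 4B plants had 223 to 265 CPM. Without that library the slope was 71.5 ± 6.61 CPM per copy (SE). The slope of log2 CPM on log2 copy number was 0.93 ± 0.07 (SE, 24 carriers), where 1 means a level in proportion to copy number. The straight line through the carriers met 0 copies at 23.3 ± 30.0 CPM (SE), against a control mean of 1.56 ± 2.65 CPM (SD, n = 4). Its gain in CPM per copy ranked 19 among all 60247 TEs and 16 among the 57955 without the B tag.

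DTC00108Zm00004b00001, 127 bases long, was already abundant in plants without B chromosomes. The 4 controls had 298, 260, 342 and 317 CPM, the 1B plants 386, 441, 459 and 416 CPM, and the 2B plants 492, 452, 439 and 422 CPM. All carriers lay above all controls, while 1B and 2B overlapped. The 3B plants had 494, 492, 485 and 491 CPM, the 4B plants 645, 447, 555 and 553 CPM, and the 5B plants 622 and 550 CPM. The 6B plants had 708, 634 and 687 CPM and the 7B plants 671, 755 and 713 CPM. The 6B and 7B plants lay above every plant with 5 copies or fewer except the library labelled 4B replicate 1, which passed 1 of the 6B plants.

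The log2 change of DTC00108Zm00004b00001 for B presence was 0.84 ± 0.08 (SE; edgeR adjusted p = 9.9e-10), and its slope among carriers was 0.13 ± 0.01 per copy (SE; edgeR adjusted p = 6.5e-09). The carrier line met 0 copies at 356 ± 18.3 CPM (SE), against 304 ± 34.6 CPM measured in controls (SD, n = 4). From 1B to 7B its mean level went up 1.68-fold, against 7.02-fold for DTC00060Zm00004b00002. Its gain ranked 34 among all TEs and 27 among those without the B tag. Per length it was the highest of the tested CACTA elements, at a mean of 4001 deposited RPKM over the 28 plants, followed by DTC00060Zm00004b00002 at 2091 RPKM and DTC00122Zm00004b00060 at 1813 RPKM. Whether reads of these short elements came from the B chromosomes or from the regular A chromosomes was not tested: the TE table gives no coordinates, and how reads with several matching places were counted is not given in the sources used here.

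**Figure D2:**
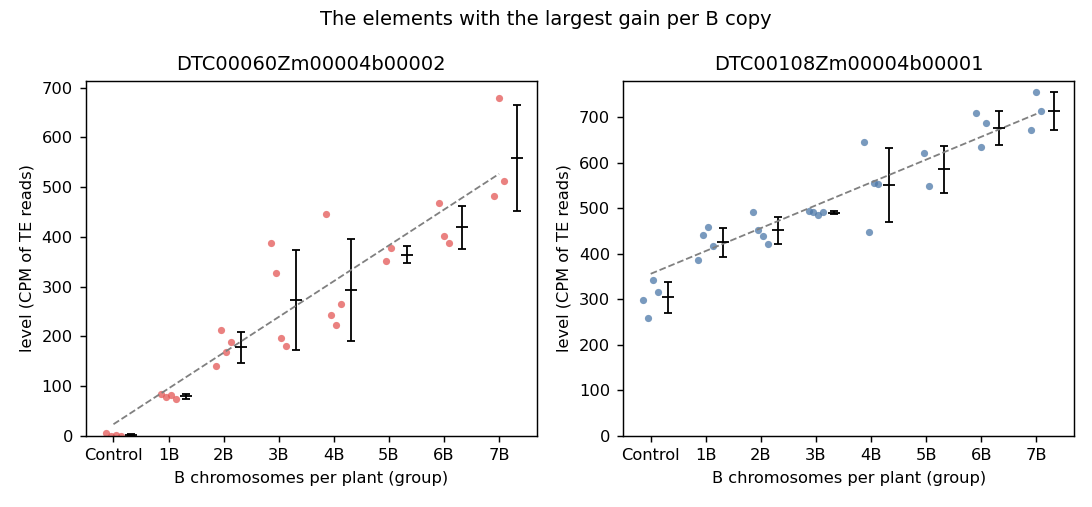
Level of DTC00060Zm00004b00002 (left) and DTC00108Zm00004b00001 (right) in CPM of TE reads, by group. Points are single plants, black marks the group mean ± SD, and the dashed line is the least-squares line through the carriers; the line meets the control position at 23.3 CPM on the left and 356 CPM on the right.

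Tests of single elements covered 14 of the 310, the same 14 for presence and dosage, from 12 families and with 94.8% of CACTA counts. The other 296 had too few counts for the filter. For B presence, 6 of the 14 were higher in carriers and 3 lower, or 42.9% and 21.4%, where 23.7% of all 5359 tested TEs were higher and 21.7% lower. For B dosage, 4 of the 14 rose and 1 fell with copy number, or 28.6% and 7.14%, where 8.97% of all 5074 tested TEs rose and 3.59% fell. The filter keeps an element with enough counts in at least as many libraries as the smallest group has, whatever their groups. These shares therefore describe the 14 elements and not the superfamily. DTC00060Zm00004b00002, DTC00062Zm00004b00001, DTC00056Zm00004b00002, DTC00122Zm00004b00039, DTC00113Zm00004b00003 and DTC00118Zm00004b00017 had too few counts in controls and entered through carriers. Their p-values for presence are not free of that selection and only describe these elements. The median log2 change for presence was 0.39 over the 14 and 0.06 over all tested TEs, and the median slope was 0.05 against -0.01. Without the library labelled 4B replicate 1 the counts were the same, 6 higher and 3 lower for presence and 4 rising and 1 falling for dosage. Called for both presence and dosage were 3 elements, and 3 were called for neither.

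**Figure D3:**
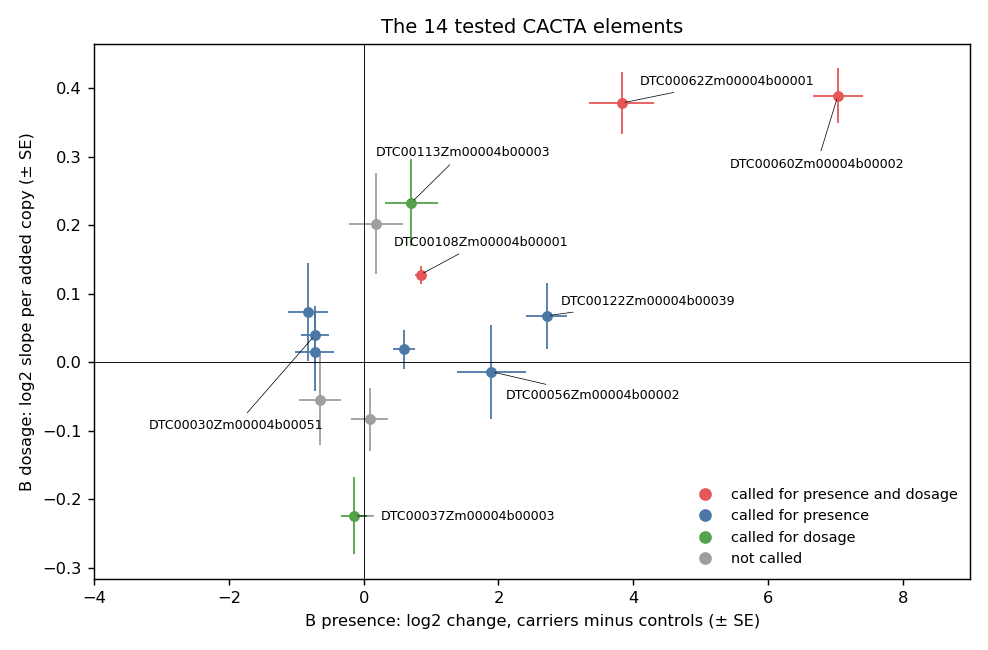
The 14 tested CACTA elements, with the log2 change for B presence on the horizontal axis and the log2 slope per added copy among carriers on the vertical axis, both with SE bars. Colour marks which test passed an edgeR adjusted p of 0.05; 3 elements in red passed both, and DTC00037Zm00004b00003 is the element that fell with copy number.

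The third element called for both was DTC00062Zm00004b00001, 128 bases long, which rose in step with copy number at a low level. The controls had 3, 0, 0 and 0 counts, or 2.06 CPM in Control replicate 1 and 0 in the others, and carriers ran from 2.47 CPM through a median of 10.2 to 26.5 CPM. All 24 carriers lay above the highest control, although the lowest of them by little. The ratio of pooled levels was 18.0 (95% interval 6.10 to 87.7, counting error only). Its log2 change for presence was 3.82 ± 0.48 (SE; edgeR adjusted p = 9.2e-08), or 6.64 without Control replicate 1, and its slope was 0.38 ± 0.05 per copy (SE; edgeR adjusted p = 1.6e-07). The slope of log2 CPM on log2 copy number was 0.93 ± 0.09 (SE), and the 7B mean was 5.46 times the 1B mean. The other listed element of its family, DTC00062Zm00004b00003, had 59 counts in all and was not tested.

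DTC00113Zm00004b00003, 127 bases long, rose by 0.23 ± 0.06 per copy (SE; edgeR adjusted p = 0.011), from 2.39 ± 0.878 CPM in 1B (SD, n = 4) to 5.83 ± 2.41 CPM in 7B (n = 3). Its controls, at 2.75, 0, 4.37 and 2.52 CPM, overlapped the carriers, and its presence change of 0.71 did not pass (edgeR adjusted p = 0.15). Without the filter on low counts the slope did not pass either (edgeR adjusted p = 0.098). The element had 1 to 5 counts in each plant of 1B to 3B. It passed the filter through plants with 4 or more copies, so its dosage p-value is not free of that selection.

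A further group of 3 elements was higher in the average of the carrier groups, with no slope that passed. DTC00122Zm00004b00039, 137 bases long, had 3.44, 4.16, 2.91 and 5.05 CPM in controls and 6.83 to 37.5 CPM in carriers, with a median of 24.8. All 24 carriers lay above all controls, and the 1B plants, at 22.2, 22.6, 29.4 and 12.5 CPM, covered much of the range of the 7B plants, at 22.1, 31.8 and 30.8 CPM. Its log2 change for presence was 2.72 ± 0.30 (SE; edgeR adjusted p = 9.4e-09) and its slope 0.07 ± 0.05 per copy (edgeR adjusted p = 0.43). The 3B plants were the lowest carriers by mean, at 14.2 ± 5.11 CPM (SD, n = 4).

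DTC00122Zm00004b00060, of the same family and the same length, stood at 227, 165, 171 and 120 CPM in controls. Carriers ran from 165 CPM through a median of 258 to 411 CPM, and 18 of 24 lay above the highest control. Its log2 change for presence was 0.60 ± 0.16 (SE; edgeR adjusted p = 0.0033) and its slope 0.02 ± 0.03 per copy (edgeR adjusted p = 0.77). Without the 3 libraries rich in the Gypsy element the presence change was 0.39 and did not pass (edgeR adjusted p = 0.17). The highest carrier was the library labelled 4B replicate 1, and without it the change was 0.54 (edgeR adjusted p = 0.0040).

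DTC00056Zm00004b00002, 400 bases long, had 2.06, 2.08, 2.18 and 0 CPM in controls. Carriers ran from 2.91 CPM through a median of 5.93 to 19.5 CPM, and all 24 lay above the highest control, the lowest by little. In counts the controls had 3, 2, 3 and 0. The carriers 1B replicate 3, 2B replicate 2 and 3B replicate 1 also had 3 counts each. They lay above Control replicate 1 and Control replicate 3 in CPM only because their corrected TE totals were smaller. Its log2 change for presence was 1.89 ± 0.52 (SE; edgeR adjusted p = 0.0032) and its slope -0.01 ± 0.07 per copy (edgeR adjusted p = 0.94). Its highest value, 19.5 CPM, was again in the library labelled 4B replicate 1, without which the presence change was 1.75 (edgeR adjusted p = 0.0021).

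The calls of the 3 elements that were lower in carriers were lost with spike-in totals and with unscaled TE totals. They held with edgeR's other scaling (RLE) and with DESeq2. DTC00030Zm00004b00051, 270 bases long, had 122, 99.8, 123 and 132 CPM in controls. Carriers ran from 13.7 CPM through a median of 74.2 to 130 CPM, and 23 of 24 lay below the lowest control. Its log2 change was -0.72 ± 0.20 (SE; edgeR adjusted p = 0.0041), and its slope among carriers was 0.04 ± 0.04 per copy (edgeR adjusted p = 0.65). With spike-in totals as library sizes the change was -0.39 (edgeR adjusted p = 0.26), and with unscaled TE totals it was -0.40 (edgeR adjusted p = 0.20). These scalings moved the median of all tested TEs from 0.06 to 0.39 and 0.37. Relative to that median, the change of DTC00030Zm00004b00051 was -0.79 with TMM, -0.79 with spike-in totals and -0.77 with unscaled totals.

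DTC00036Zm00004b00004, 178 bases long, had 8.93, 8.31, 11.6 and 17.7 CPM in controls and a median of 6.38 CPM in carriers, 19 of which lay below the lowest control (log2 change -0.82 ± 0.30, SE; edgeR adjusted p = 0.024). DTC00119Zm00004b00035, 138 bases long, had 10.3, 12.5, 11.6 and 11.4 CPM in controls and a median of 6.43 CPM in carriers, 22 of which lay below the lowest control (log2 change -0.73 ± 0.28, SE; edgeR adjusted p = 0.036). Neither passed with spike-in totals (-0.53 and -0.44; edgeR adjusted p = 0.23 and 0.31) or with unscaled totals (-0.48 and -0.41; edgeR adjusted p = 0.22 and 0.35). Relative to the median of all tested TEs, DTC00036Zm00004b00004 lay at -0.92 to -0.85 and DTC00119Zm00004b00035 at -0.83 to -0.78 over the 3 scalings. Without Control replicate 3 or Control replicate 4 neither passed, and DTC00119Zm00004b00035 also did not without Control replicate 2 (edgeR adjusted p between 0.056 and 0.15 in these 5 fits). Both also failed without the 3 libraries rich in the Gypsy element (edgeR adjusted p = 0.17 and 0.16) and when low counts were not filtered out (0.078 and 0.13).

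DTC00037Zm00004b00003, 178 bases long, fell with copy number. Controls had 61.8, 67.5, 72.8 and 63.1 CPM, and 1B plants 70.3, 54.4, 87.2 and 72.6 CPM. The 3B plants were the highest group, at 65.8, 105, 197 and 103 CPM, and the 6B and 7B plants the lowest, at 42.7, 21.5 and 35.1 CPM and at 40.7, 37.2 and 36.6 CPM. Every 6B and 7B plant lay below every control and below every plant with 1 to 5 copies. The slope was -0.22 ± 0.06 per copy (SE; edgeR adjusted p = 0.0055), with no steady decline from group to group. For presence the change was -0.15 ± 0.19 (SE; edgeR adjusted p = 0.58), which became 0.15 with unscaled totals and 0.16 with spike-in totals. Relative to the median of all tested TEs under each scaling it was -0.21, -0.22 and -0.23 in that order.

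**Figure D4:**
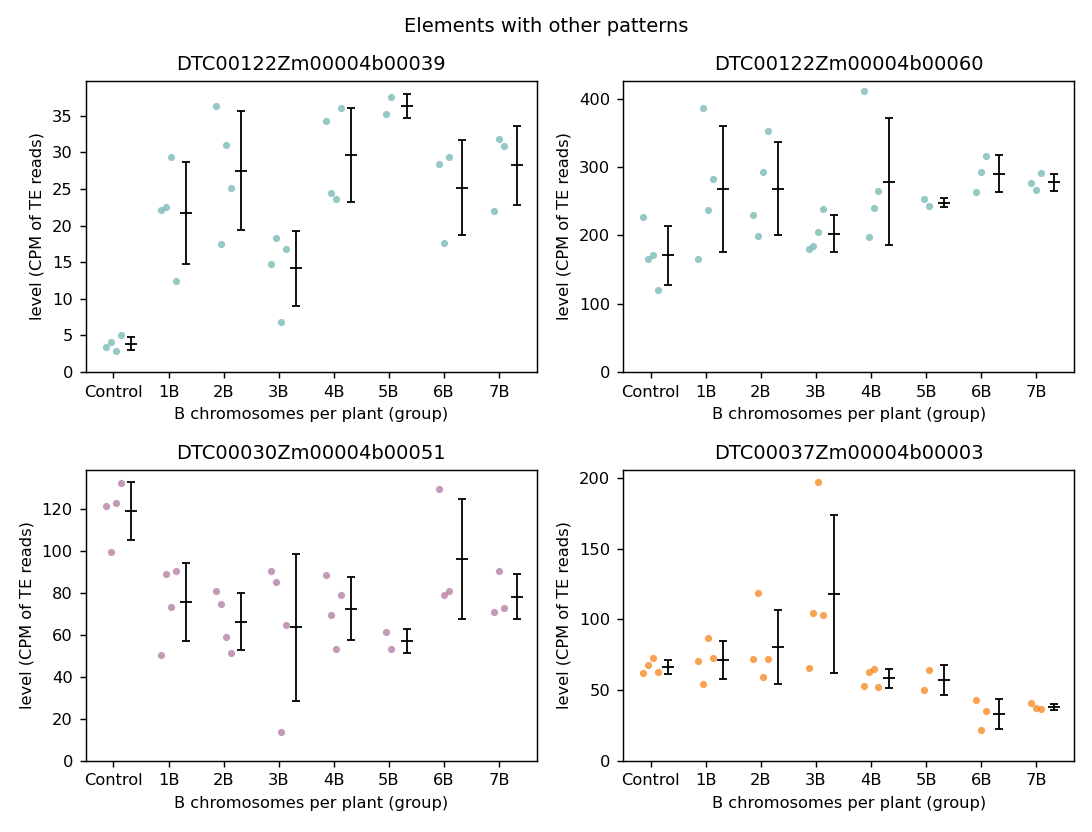
Level in CPM of TE reads by group for DTC00122Zm00004b00039 and DTC00122Zm00004b00060 (top) and DTC00030Zm00004b00051 and DTC00037Zm00004b00003 (bottom). Points are single plants and black marks the group mean ± SD; DTC00122Zm00004b00039 has all 24 carriers above the controls, and DTC00037Zm00004b00003 is lowest in 6B and 7B.

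The 3 elements called for neither were DTC00022Zm00004b00001, with a presence change of -0.65 and a slope of -0.05 per copy, DTC00118Zm00004b00017, with 0.18 and 0.20, and DTC00113Zm00004b00006, with 0.09 and -0.08. The lowest of their edgeR adjusted p-values was 0.072, for the slope of DTC00118Zm00004b00017. The 296 elements left untested held 5.16% of CACTA counts. Of these, 194 had counts, with a median of 4 and a highest total of 144. Counts appeared in carriers only for 88 of them and in controls only for 16, in a design with 24 carriers and 4 controls. No matching share over all TEs is given here, so these numbers are not a result about CACTA elements. Summed, the untested elements gave 78.8 ± 21.4 CPM over the 4 controls (SD), 55.5 ± 5.95 CPM over the 4 plants of 1B and 73.0 ± 4.36 CPM over the 3 of 7B.

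The authors' deposited table sets each copy number against the same 4 controls and lists all 310 elements. In the authors' deposited table, the number of CACTA elements past a false discovery rate of 0.05 was 2 for 1B, 4 each for 2B and 3B, 5 for 4B, 7 each for 5B and 6B, and 10 for 7B. All of these were higher in carriers except 1 of the 7 in 6B. As shares of the 310 elements these are 0.645% in 1B, 1.29% for 2B and for 3B, 1.61% in 4B, 2.26% for 5B and for 6B, and 3.23% in 7B. Over all TEs in the authors' deposited table, the share that was higher was 0.526% in 1B, 1.3% at 2 copies, 1.22% at 3, 1.6% at 4, 1.16% at 5, 1.71% at 6 and 2.18% at 7. The share of all TEs that was lower in the authors' deposited table was 0.607% in 1B, 0.619% at 2 copies, 0.798% at 3, 0.622% at 4, 0.193% at 5, 0.669% at 6 and 0.498% at 7. At 1 to 4 copies, where all CACTA elements past the rate were higher, their share lay near that of all TEs that were higher. The 2.26% in 6B includes the 1 element that was lower. The 6 of 310 that were higher there are also near the 1.71% of all TEs. At 5 and 7 copies the CACTA share was above that of all TEs, on 7 and 10 elements, and the difference was not tested. For DTC00060Zm00004b00002 the authors' deposited table gives a log2 change of 5.36 in 1B and 8.52 in 7B. For DTC00108Zm00004b00001 the authors' deposited table gives 0.55 in 1B, with a false discovery rate of 0.66, and 1.66 in 7B, with 8.6e-06. Elements past that rate at any copy number in the authors' deposited table number 14, a count for which no matching share of all TEs is given here. Of the 14, 8 had too few counts to be tested here. Among these, DTC00059Zm00004b00001 and DTC00059Zm00004b00002 had no counts in controls and 28 and 22 counts in carriers, and their 7B means were 1.47 and 2.27 CPM.

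The rise with copy number was set against the untagged elements of 4 other superfamilies in the same 24 carriers. The ratio of the CACTA sum to the other sum rose by 0.12 ± 0.01 per copy on the log2 scale for hAT (SE; r = 0.886), by 0.15 ± 0.01 for PIF-Harbinger (r = 0.913), by 0.15 ± 0.01 for Mutator (r = 0.920) and by 0.09 ± 0.03 for Tc1-Mariner (r = 0.575). Over these 4 comparisons the adjusted permutation p of r was 1.3e-05 for the first 3 and 0.0025 for Tc1-Mariner, and the ratio is free of library scaling. The rise of the CACTA sum was already known and enters all 4 ratios, so these p-values are no separate support for it. The other sums themselves changed by 31.5 ± 36.3 CPM per copy for hAT, -25.8 ± 7.89 for PIF-Harbinger, -14.0 ± 5.59 for Mutator and 20.4 ± 11.8 for Tc1-Mariner (SE). The slope of the CACTA sum rests on a pair of elements, so this difference is one of the sums and not of typical members.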

How the data were processed

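The authors deposited raw read counts per TE and per ERCC spike-in RNA, and the TE values also as RPKM; the deposited gene table holds FPKM. The authors' own comparisons give log2 fold changes, a likelihood-ratio score and p-values from edgeR, per the file headers. The submitters' processing notes list the tools cutadapt (version 1.16), TopHat2, Bowtie2, Cuffdiff and edgeR without their roles. Genome build, annotation and the treatment of reads with several matches are not given in the sources used here. Since the labels tie the TE table to no assay, it was read as RNA-seq.

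Members and lists were chosen with earlier results of these data known. All TEs were tested with edgeR 4.0.16 (quasi-likelihood, TMM, filterByExpr by group) in R 4.3.3, in 1 fit of 28 libraries for presence and in the 24 carriers for dosage, with Benjamini-Hochberg adjustment over all TEs tested and a threshold of 0.05. The SE is the size of the log2 change divided by the square root of F. Sums were compared by an exact permutation test over 20475 arrangements and by 100000 permutations of copy number (scipy 1.17.1). Both kinds of test were tested on simulated data. Named elements are the 6 most abundant, the 4 with the largest slopes in size, and up to 4 called elements per direction with a group mean of at least 1 CPM; the 3 uncalled elements, DTC00062Zm00004b00003 and the DTC00059 elements were added after their values were seen. Alternatives were other scalings, DESeq2 1.42.0, no filter, a replicate block, and leaving out libraries. Replicates are separate plants. The intervals of pooled ratios use counts pooled over plants, so they cover counting error only and not the spread between plants. The counts also come without molecular identifiers.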

Additional observations from a re-analysis of the deposited data

Results flagged for a closer look

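In 4 of 60 sets of values, each from the 4 plants of a group, a single plant stood apart from the rest by Dixon's criterion at 95%; chance gives about 1 group in 20. Control replicate 1 had 5.50 CPM of DTC00060Zm00004b00002, where the other controls had 0 to 0.728 CPM. The same plant had 2.06 CPM of DTC00062Zm00004b00001, where the other controls had 0. Its sum over the 33 B-tagged TEs nearly absent from controls was 6.18 CPM, within the range of the other controls (3.12 to 10.9 CPM). Control replicate 4 had 0 CPM of DTC00056Zm00004b00002, where the others had 2.06 to 2.18 CPM. The library labelled 4B replicate 1 had 19.5 CPM of DTC00056Zm00004b00002, where the other 4B plants had 3.92 to 5.92 CPM.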

How the results depend on the processing

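The 9 calls for presence became 15 with no filter on low counts (6 higher and 9 lower, 7 of them shared with the 9). The lower calls added there rest on 4 to 70 counts each. In that setting 48316 TEs were tested, with a median log2 change of -0.27. The share of them called is not given here, so the added calls are not a result about CACTA elements. The lower calls went from 3 to 0 with spike-in or unscaled totals and to 1 without the 3 libraries rich in the Gypsy element. Leaving out 1 library at a time gave 7 to 10 calls for presence, 5 to 6 for dosage, a difference in the sum of 0.72 to 0.81 and an r with copy number of 0.879 to 0.935. With spike-in totals r was 0.619 (permutation p = 0.0012). Without the 2 elements with the largest slopes, an alternative chosen after seeing the data, as was leaving out 4B replicate 1 for its B-tagged level, the slope was 5.77 CPM per copy. Same-numbered plants did not deviate together (median r of -0.010 over 87 pairs); with the replicate number as a block the calls were 9 and 5, the sum's difference was 0.75 and its r 0.886. Over the 11 named elements, 699 of 726 refits kept direction and call, 17 kept direction but lost the call, and 10 changed sign in 3 results that were uncalled throughout. These were the presence change of DTC00037Zm00004b00003 (0.15 and 0.16 with unscaled and spike-in totals), the slope of DTC00056Zm00004b00002 (0.025 and 0.0010 with those totals, and 0.00067, 0.035 and 0.0049 without 1B replicate 1, 1B replicate 2 and 7B replicate 2) and the slope of DTC00119Zm00004b00035 (-0.012 without the 3 libraries and without 1B replicate 3, -0.0038 without 6B replicate 3). Their ranges over single left-out libraries were -0.24 to -0.13, -0.032 to 0.035 and -0.012 to 0.055. The B-tagged CACTA results and their ratio to the others were not run, since that set is empty. Elements under the filter, 194 with a median of 4 counts, are too shallow for a single test.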
